A study of Mus musculus with 6 samples.

Results

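This account covers 113 genes that encode regulators of small GTPases, out of 51912 genes in the table. They were chosen by gene symbol, as the genes named Arhgap, Arhgef, Tbc1d, Rasgrp, Rasgrf, Rasal, Rasa or Dock with a number and at most 1 letter after it. No measured value enters that symbol rule, but the group was picked out with results of the same strain comparison in view, so its totals are a description and are given no test as a set. By name, 71 are GTPase-activating proteins (34 Arhgap, 30 Tbc1d, 4 Rasa and 3 Rasal genes) and 42 are exchange factors (25 Arhgef, 11 Dock, 4 Rasgrp and 2 Rasgrf genes). RNA came from hippocampus of mice of 2 inbred strains, 3 libraries from C57BL/6 and 3 from DBA/2, with 13839366 to 20185683 counts in a library. The labels give no allele, agent, sex, age or substrain, and they leave it unclear whether a library came from 1 animal or several, so the p-values reflect how far these libraries spread, and that spread may be technical. Xist, the transcript of the inactive X chromosome in females, had 3214 and 6995 counts in C57BL/6 replicates 1 and 3 and at most 12 counts in each of the other 4 libraries. In this bulk tissue, fewer cells of a type and less RNA per cell cannot be told apart.

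Small GTPases of the RhoA/Rac/Cdc42, Ras and Rab families are switches that are active with GTP bound and inactive with GDP bound. Exchange factors (GEFs) load them with GTP, and GTPase-activating proteins (GAPs) speed up the hydrolysis that turns them off. In hippocampal neurons RhoA, Rac and Cdc42 set the actin skeleton of dendritic spines, Ras switches carry calcium and receptor signals to kinases, and Rab switches direct vesicle traffic. Arhgap proteins act on RhoA, Rac or Cdc42 and their relatives, Tbc1d proteins mostly on Rabs, and Rasa and Rasal proteins on Ras. Arhgef and Dock proteins activate RhoA, Rac or Cdc42, whereas Rasgrp and Rasgrf proteins activate Ras relatives.

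Of the 113 genes, 106 passed the filter on low counts. In DBA/2, 20 were higher and 13 lower than in C57BL/6 (quasi-likelihood test of edgeR, adjusted p under 0.05 after Benjamini-Hochberg correction over all 17517 genes tested), which is 31.1% of those tested. Over all tested genes 22.8% were called, 9.09% higher and 13.7% lower. Among GAPs 10 of 67 tested were higher and 6 lower (23.9% called), and among exchange factors 10 of 39 were higher and 7 lower (43.6% called). The share called among GAPs is thus near that of all genes. The difference between GAPs and exchange factors was not tested. For 46 of the 106 genes (43.4%) all libraries of one strain lay above all of the other, as for 36.8% of all tested genes. The median log2 fold change of DBA/2 over C57BL/6 was -0.02 for GAPs, 0.08 for exchange factors and 0.00 for all genes. Most differences were small. Among the 33 called members, 26 differed by less than 0.5 on the log2 scale (78.8%, against 52.5% of the 4000 called genes overall) and 2 by at least 1 (6.06%, against 22.8%). Of the 73 tested members that were not called, 61 had a fitted change of less than 0.2. With each library left out in turn, 12 to 17 GAPs and 12 to 16 exchange factors were called. Leaving out C57BL/6 replicates 1 and 3, the libraries with Xist, left 1 library of that strain. Fewer genes then passed, among the members and over the whole table. Whether a call was lost there through these libraries or through fewer samples cannot be told apart. No called member changed direction. The members that lost their call in that fit were Arhgap17, Arhgap27, Arhgap32, Arhgap39, Tbc1d1, Tbc1d5, Arhgef1, Arhgef4, Arhgef6, Arhgef10, Arhgef11, Arhgef18, Arhgef26, Dock4, Dock9, Rasgrf1, Rasgrp1 and Rasgrp4. Limma on log2(FPKM + 1) called 10 exchange factors, 6 higher and 4 lower. There and on log2(FPKM + 0.1), calls were lost for Arhgap17, Arhgap27, Rasa4, Arhgef4, Arhgef10, Arhgef11, Arhgef18, Arhgef26, Dock4 and Rasgrp4. The DESeq2 Wald test did not call Arhgap17, Arhgap27, Rasa4, Tbc1d1, Arhgef4, Arhgef18, Arhgef33 or Rasgrp4. Lost calls listed with single genes below leave out DESeq2 and limma on FPKM. With library size alone as the scaling, 11 GAPs were higher and 4 lower.

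**Figure D1:**
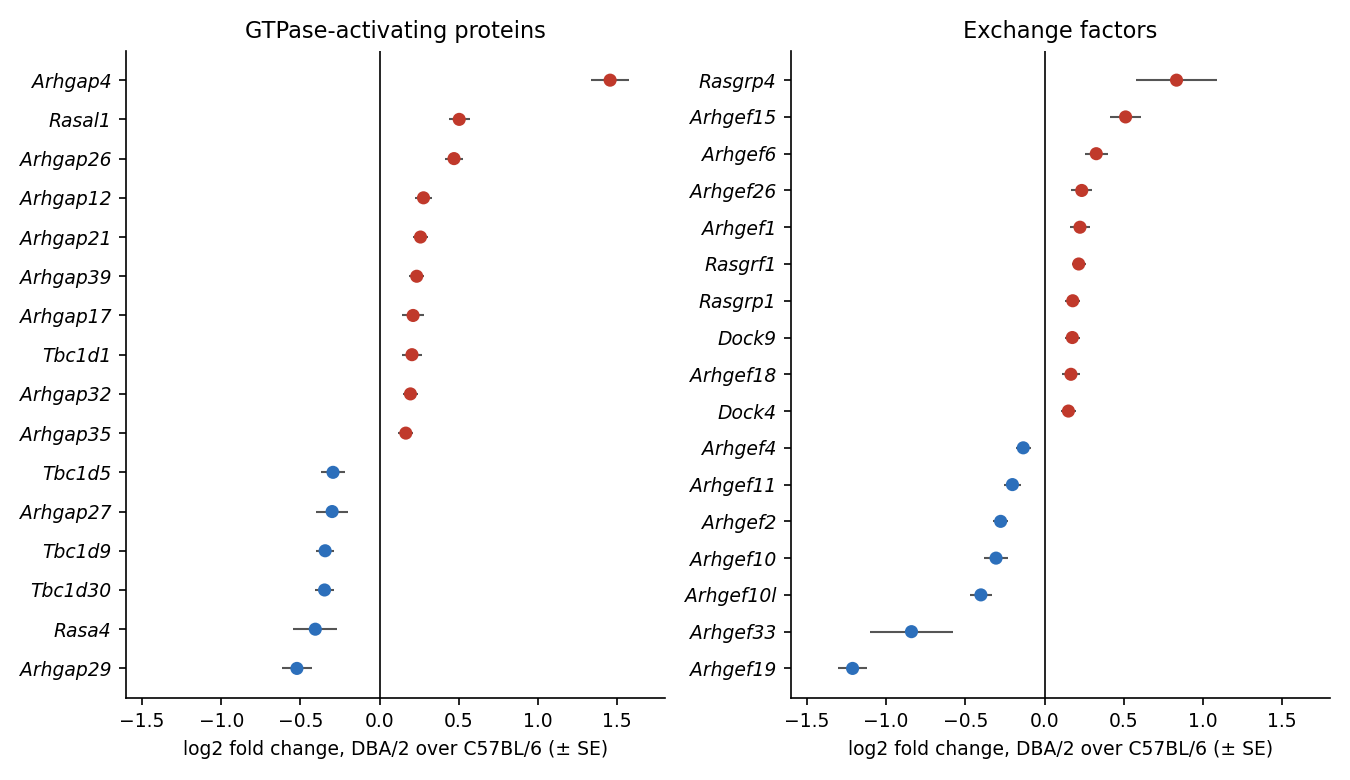
Log2 fold change of DBA/2 over C57BL/6 (x axis, point, with its standard error as a bar) for the 16 called GAPs and the 17 called exchange factors, red where higher and blue where lower in DBA/2. Arhgap4 and Arhgef19 lie furthest from 0, at 1.46 and -1.21, and most other members lie within 0.5 of 0.

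The symbol families differed in how their calls fell. Of 32 tested Arhgap genes 8 were higher and 2 lower, whereas of 28 tested Tbc1d genes 1 was higher and 3 lower. The Arhgef family had the most calls, 5 higher and 7 lower of 23 (52.2%). Of 11 Dock genes 2 were higher and 9 were not called, and of 3 tested Rasgrp genes 2 were higher. In the Rasgrf, Rasal and Rasa families 1 gene each was called, of 2, 3 and 4 tested. No test compared the families with each other. Levels are compared between genes as FPKM, the deposited values per kilobase of exon and scaled to library total. Members at 20 FPKM or more were called in 8 of 17 cases, those from 5 to 20 FPKM in 15 of 39, those from 1 to 5 FPKM in 8 of 34 and those below 1 FPKM in 2 of 16. Over all tested genes, 27.6%, 24.2%, 22.1% and 18.3% of the genes in these same bands were called.

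**Figure D2:**
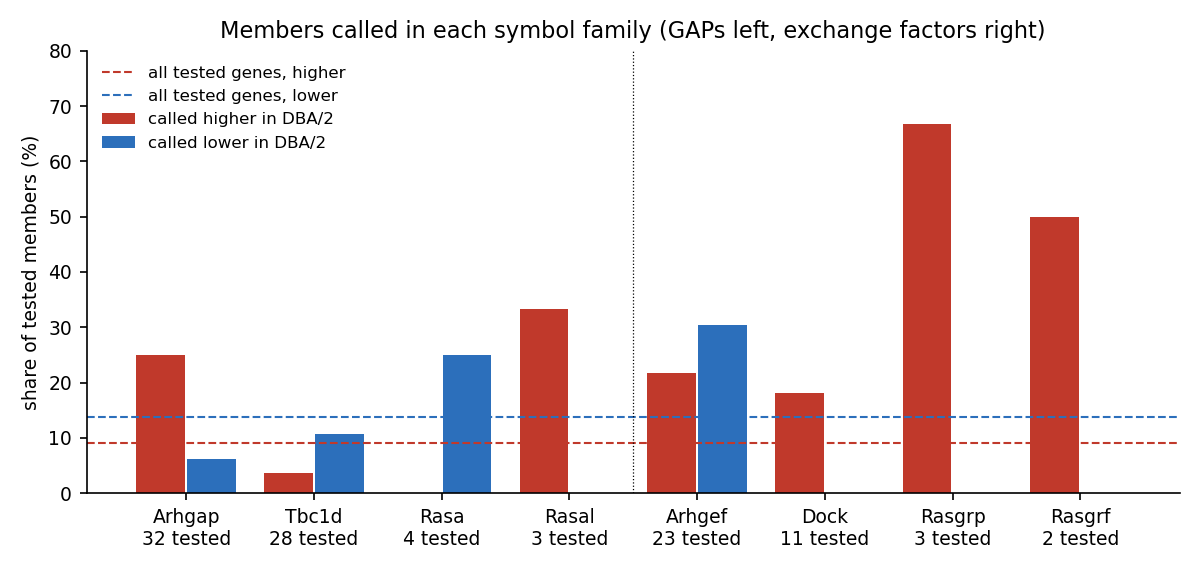
Share of tested members called higher (red bars) or lower (blue bars) in DBA/2, in percent, for each symbol family, with the number tested under its name. The dashed lines mark all tested genes, 9.09% higher and 13.7% lower, and the families with 2 to 4 tested genes rest on 1 or 2 calls.

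The summed level of the GAPs was 558, 561 and 571 FPKM in the C57BL/6 libraries and 586, 605.5 and 599.6 FPKM in the DBA/2 libraries. That of the exchange factors was 553, 572 and 564 FPKM in C57BL/6 and 606, 596 and 601 FPKM in DBA/2. Both sums were higher in each DBA/2 library than in each C57BL/6 library, while exchange factors over GAPs stayed at 0.985 to 1.03 in all 6 libraries. FPKM leaves out the TMM scaling factors of the test, 0.989 to 0.995 in C57BL/6 and 1.0045 to 1.012 in DBA/2. On log2(FPKM + 1) the median change of all genes was 0.02, so FPKM sums lean towards DBA/2. Among exchange factors, Rasgrp1 had means of 98.95 FPKM in C57BL/6 and 113.8 in DBA/2, and Rasgrf1 46.9 and 55.3. Arhgap genes made up most of the difference among GAPs, with 246.7 ± 4.83 FPKM in C57BL/6 and 267.5 ± 8.39 FPKM in DBA/2 (SD, n = 3 each). The Rasal sum was 36.4 ± 2.57 and 48.4 ± 3.22 FPKM, and the Tbc1d sum 246.1 ± 0.648 and 247.5 ± 2.77 FPKM. Among the most abundant members were Rasgrp1 at 106 FPKM, Arhgef25 at 84.5 FPKM and Rasgrf1 at 51.1 FPKM as means over all libraries. Among GAPs the highest were Arhgap21 at 35.9 FPKM, Tbc1d9b at 33.9 FPKM and Rasal1 at 32.7 FPKM.

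**Figure D3:**
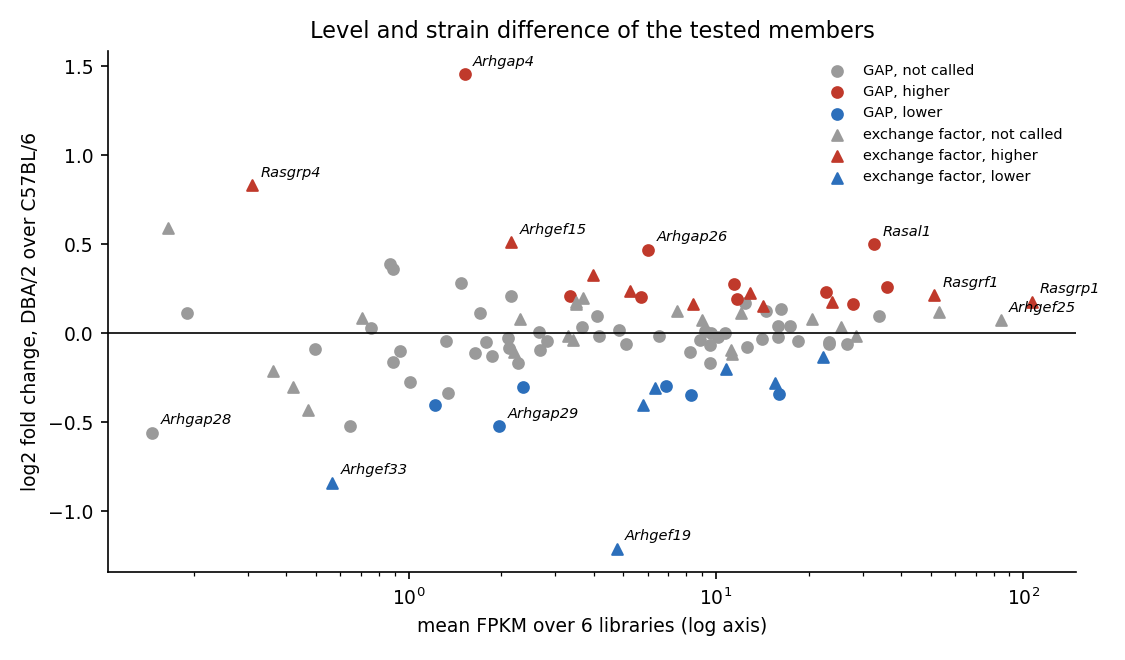
Mean FPKM over 6 libraries (x axis, log scale) against log2 fold change of DBA/2 over C57BL/6 (y axis) for the 106 tested members, circles for GAPs and triangles for exchange factors, coloured by call. The largest changes, those of Arhgap4 and Arhgef19, sit below 5 FPKM, and the abundant called members such as Rasgrp1 and Rasgrf1 changed by 0.18 and 0.22.

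Promoter sequences are shown for 4 members, the called GAP with the largest rise and that with the largest fall, and 2 exchange factors that lie near each other on chromosome 4 and were both lower in DBA/2. Each run holds 250 bases before and 50 after a RefSeq start site on GRCm38.p6, read 5′ to 3′ on the gene's strand. RefSeq promoters were found for 86 of the 113 members. Capitals mark matches, on either strand, to the GC box GGGCGG, the CCAAT box CCAAT, the TATA box TATAAA and the cAMP response element TGACGTCA. A pair of GC boxes in the Arhgap29 run overlap each other. The 4 members and the motifs were chosen after values were known.
Arhgap4 (chrX:73911249-73911548, minus strand): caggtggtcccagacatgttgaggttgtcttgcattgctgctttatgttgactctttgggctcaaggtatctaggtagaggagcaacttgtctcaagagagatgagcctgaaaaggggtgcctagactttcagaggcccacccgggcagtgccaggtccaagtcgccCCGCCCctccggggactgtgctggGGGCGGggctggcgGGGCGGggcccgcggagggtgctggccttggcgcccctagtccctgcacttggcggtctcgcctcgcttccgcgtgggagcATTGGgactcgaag
Arhgap29 (chr3:121952979-121953278, plus strand): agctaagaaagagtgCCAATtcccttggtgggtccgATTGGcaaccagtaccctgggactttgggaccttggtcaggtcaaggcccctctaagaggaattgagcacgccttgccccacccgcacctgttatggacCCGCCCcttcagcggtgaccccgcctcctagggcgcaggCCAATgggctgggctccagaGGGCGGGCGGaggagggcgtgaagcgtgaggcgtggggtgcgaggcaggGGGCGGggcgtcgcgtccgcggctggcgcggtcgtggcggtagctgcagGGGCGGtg
Arhgef19 (chr4:141244838-141245137, plus strand): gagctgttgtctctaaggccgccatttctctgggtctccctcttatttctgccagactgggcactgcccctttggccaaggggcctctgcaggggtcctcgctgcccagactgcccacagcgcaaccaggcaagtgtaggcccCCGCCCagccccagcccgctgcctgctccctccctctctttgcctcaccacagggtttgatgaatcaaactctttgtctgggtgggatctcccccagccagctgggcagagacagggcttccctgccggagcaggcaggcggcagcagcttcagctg
Arhgef10l (chr4:140665856-140666155, minus strand): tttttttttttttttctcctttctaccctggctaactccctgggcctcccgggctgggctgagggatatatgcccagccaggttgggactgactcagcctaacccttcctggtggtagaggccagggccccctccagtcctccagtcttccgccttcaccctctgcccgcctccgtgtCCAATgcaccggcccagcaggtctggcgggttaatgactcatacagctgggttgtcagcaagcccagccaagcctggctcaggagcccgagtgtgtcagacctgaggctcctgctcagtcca
The Arhgap29 promoter held 5 GC boxes, 3 CCAAT boxes and 24 CpG dinucleotides, and the Arhgap4 promoter 3 GC boxes, 1 CCAAT box and 16 CpGs. Arhgef19 had 1 GC box and Arhgef10l 1 CCAAT box, with 7 CpGs each, which equals the median of all 32851 promoters in the table. GC boxes are in 35.66% of all these promoters, CCAAT boxes in 37.41%, TATA boxes in 13.62% and the cAMP response element in 1.79%. Among the 126 promoters of members these shares are 57.14%, 26.19%, 4.76% and 0.79%, in the same order. None of the 4 sequences held a match to the TATA box or the cAMP response element. These letters are of the reference strain C57BL/6J, so they show no DBA/2 base. All 4 RefSeq starts lie inside the span of their gene in the GENCODE annotation, those of Arhgap4 and Arhgef19 by the most, so a run need not be at the outermost 5′ end.

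Among the GAPs, Arhgap4 (ENSMUSG00000031389, chromosome X, 73891442 to 73921870), a GAP with an F-BAR domain related to the srGAPs, had the largest change. In CPM, that is counts scaled to a common library size with TMM factors, it had 6.44, 5.69 and 7.43 CPM in the C57BL/6 libraries and 18.3, 16.7 and 19.4 CPM in the DBA/2 libraries. All DBA/2 libraries lay well above all C57BL/6 libraries, a rise of 2.74-fold (log2 fold change 1.46 ± 0.12, SE, adjusted p = 1.58e-09). This X-linked gene was called with every library left out in turn and without the libraries with Xist. The gene overlaps Avpr2, the vasopressin V2 receptor gene on the opposite strand, which had 14 counts in C57BL/6 and 42 in DBA/2 (log2 fold change 1.63 ± 0.51, adjusted p = 0.0221). Avpr2 was not called without C57BL/6 replicate 1 or 3 or DBA/2 replicate 3, with an adjusted p up to 0.132. Whether counting used strand is not given in the sources used here, so reads of the overlap cannot be assigned between Arhgap4 and Avpr2. L1cam and Naa10, which overlap Arhgap4 on its own strand, had log2 fold changes of -0.03 and -0.08 and were not called.

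Rasal1, a Ras GAP with C2 domains that respond to calcium, was the next largest rise. Its levels were 87.3, 103 and 97.1 CPM in the C57BL/6 libraries and 129.9, 128 and 149.6 CPM in the DBA/2 libraries, without overlap (log2 fold change 0.50 ± 0.07, SE, adjusted p = 1.94e-05). Within the Rasal family, Rasal1 held 72.3% to 75.5% of the summed FPKM in C57BL/6 and 78.4% to 81.3% in DBA/2. Rasal2 had a log2 fold change of -0.04 and Rasal3, a Ras GAP of lymphocytes, one of 0.39, and neither was called. Of the 4 Rasa genes 1 was lower. Rasa4, a calcium-promoted Ras GAP, had 11.1, 11.9 and 8.53 CPM in the C57BL/6 libraries and 8.69, 7.83 and 6.99 CPM in the DBA/2 libraries. The lowest C57BL/6 value lay below the highest DBA/2 value, and this was the 1 called member whose libraries overlapped (log2 fold change -0.41 ± 0.14, adjusted p = 0.0383). Rasa4 was not called without C57BL/6 replicate 1 or 2 or DBA/2 replicate 2 or 3 (adjusted p 0.0846 to 0.177), nor with library size alone as the scaling (0.0515) or in limma-voom (0.0624). Rasa3, the most abundant of its family, had 81.5 ± 3.03 and 80.2 ± 2.48 CPM (SD, n = 3 each) without a call, and Rasa1, which encodes p120 RasGAP, and Rasa2 were not called either.

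Further Arhgap genes rose by smaller amounts. Arhgap26 encodes GRAF1, a BAR domain GAP of RhoA and Cdc42 in endocytosis, and had 88.1, 85.1 and 89.3 CPM in the C57BL/6 libraries and 109, 129 and 126 CPM in the DBA/2 libraries. The DBA/2 libraries were all higher (log2 fold change 0.47 ± 0.06, adjusted p = 1.86e-06). Arhgap12, a Rac GAP of excitatory synapses, rose from 82.8 ± 1.67 to 100.3 ± 3.48 CPM, and Arhgap21, a Cdc42 GAP of the Golgi, rose from 303 ± 18.9 to 363 ± 12 CPM (SD, n = 3 each). Arhgap39, the Rac GAP Vilse that binds Robo receptors, rose from 154 ± 3.7 to 182 ± 6.63 CPM, and Arhgap32, which binds NMDA receptor complexes, from 187 ± 3.92 to 214 ± 12.2 CPM (SD, n = 3 each). These 4 rises were of 0.19 to 0.28 on the log2 scale, with adjusted p of 0.000357 for Arhgap21, 0.000323 for Arhgap12, 0.000661 for Arhgap39 and 0.00464 for Arhgap32. Without the libraries with Xist, Arhgap39 and Arhgap32 were not called. Over all alternative fits their log2 fold changes stayed at 0.20 to 0.26 and 0.15 to 0.23.

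Arhgap35 and Arhgap17 were nearer the threshold. Arhgap35, the p190A RhoGAP, had 241 ± 11.7 and 270.2 ± 8.55 CPM (SD, n = 3 each, adjusted p = 0.0134) and was not called without C57BL/6 replicate 2 (adjusted p = 0.0965). Arhgap17, a BAR domain GAP of Cdc42 that overlaps Lcmt1 on the opposite strand, had 30.5 ± 1.6 and 35.2 ± 0.898 CPM (SD, n = 3 each, adjusted p = 0.0335). Its call was lost without C57BL/6 replicate 1 or 3 or DBA/2 replicate 2 or 3 (adjusted p 0.0511 to 0.191) and with the replicate number as a block (0.0600). Arhgap5, a relative of Arhgap35 known as p190B, had a log2 fold change of -0.05 and Arhgap44, a BAR domain Rac GAP of spines, one of -0.06, and neither was called.

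Arhgap29 was the called GAP with the largest fall. It encodes a RhoA GAP that works with the Rap1 switch in vessel cells, and it had 19.3, 20.1 and 22.4 CPM in the C57BL/6 libraries and 14.6, 15.2 and 13.3 CPM in the DBA/2 libraries. Each DBA/2 library was lower than each C57BL/6 library (log2 fold change -0.52 ± 0.10, adjusted p = 0.000245). Vessel markers had a summed level of 316 to 426 CPM in C57BL/6 and 393 to 461 CPM in DBA/2, with 2 of 14 higher, 1 lower and none at 0. Their part in the Arhgap29 value was not tested. Arhgap27, a GAP of Rac and Cdc42, had 16.8 ± 0.777 and 13.6 ± 1.21 CPM (SD, n = 3 each, adjusted p = 0.0335). Arhgap27 was not called without C57BL/6 replicate 1, 2 or 3 or DBA/2 replicate 2 or 3 (adjusted p 0.0533 to 0.117), and its adjusted p was 0.0504 with library size alone.

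The Tbc1d genes, whose TBC domain acts on Rab proteins, had 4 calls. Tbc1d9 had 106, 104 and 108 CPM in the C57BL/6 libraries and 89, 82.6 and 78.5 CPM in the DBA/2 libraries, lower in each DBA/2 library (log2 fold change -0.34 ± 0.06, adjusted p = 4.5e-05). Tbc1d30, described as a GAP of Rab8, had 63.5, 60.7 and 64.2 CPM in the C57BL/6 libraries and 48.3, 50.8 and 49.1 CPM in the DBA/2 libraries, again without overlap (log2 fold change -0.35 ± 0.06, adjusted p = 8.01e-05). Tbc1d5, a partner of the retromer complex that acts on Rab7, fell from 42.6 ± 1.1 to 34.7 ± 3.55 CPM (SD, n = 3 each, adjusted p = 0.00441). It was not called without the libraries with Xist. Over all alternative fits its log2 fold change stayed at -0.35 to -0.21. The 1 called rise was Tbc1d1, a relative of the insulin-responsive Tbc1d4, with 39.4 ± 0.843 and 45.4 ± 1.59 CPM (SD, n = 3 each, adjusted p = 0.0211). It was not called without C57BL/6 replicate 1 or 3 or DBA/2 replicate 1 or 3 (adjusted p 0.0526 to 0.0836). Tbc1d4 itself had a log2 fold change of 0.11 and was not called. Tbc1d9b, the close relative of Tbc1d9 and the most abundant Tbc1d gene, had 211 ± 2.83 and 225 ± 7.56 CPM (SD, n = 3 each, adjusted p = 0.137). Tbc1d24, a gene of inherited epilepsy, had 122 ± 4.06 and 124 ± 7 CPM (SD, n = 3 each, adjusted p = 0.886).

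**Figure D4:**
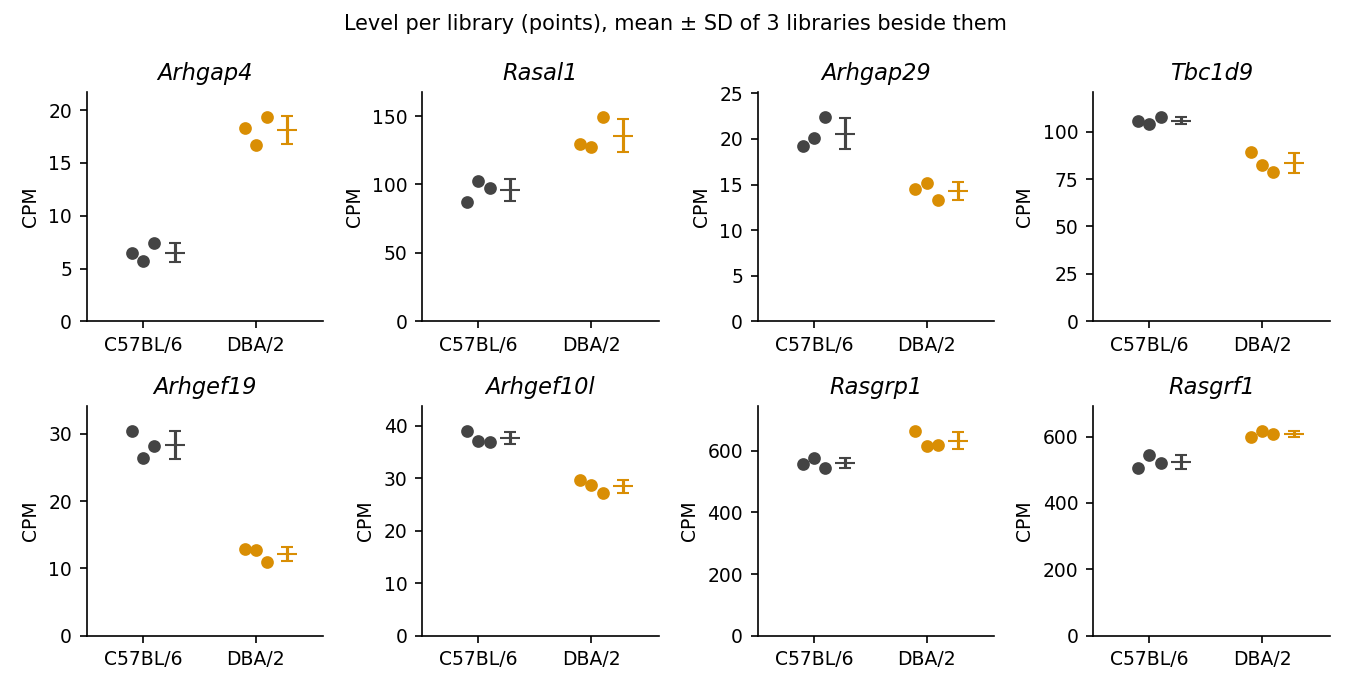
CPM in each library (points) of 4 GAPs (top) and 4 exchange factors (bottom), with the mean ± SD of the 3 libraries of each strain beside the points and the y axis from 0. The strains do not overlap in any of the 8 panels, and Arhgap4 (6.52 and 18.1 CPM) and Arhgef19 (28.3 and 12.2 CPM) show the largest fold differences.

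Among exchange factors, Arhgef19 (ENSMUSG00000028919, chromosome 4, 141239499 to 141257564) changed most. It encodes WGEF, a RhoA exchange factor of the Wnt planar polarity pathway, and had 30.5, 26.4 and 28.1 CPM in the C57BL/6 libraries and 12.9, 12.7 and 11 CPM in the DBA/2 libraries. The C57BL/6 libraries were 2.32-fold higher (log2 fold change of DBA/2 over C57BL/6 -1.21 ± 0.09, SE, adjusted p = 4.89e-10), a fall that was called in all 17 alternatives run. Arhgef10l (chromosome 4, 140514485 to 140666012), which encodes another RhoA exchange factor, lies 573487 bases away on the same chromosome. Its levels were 39.1, 37 and 37 CPM in the C57BL/6 libraries and 29.6, 28.7 and 27.2 CPM in the DBA/2 libraries, lower in each DBA/2 library (log2 fold change -0.40 ± 0.07, adjusted p = 0.000126). Arhgef10, its paralogue on chromosome 8 and a gene of slowed nerve conduction, fell from 64.9 ± 2.8 to 52.3 ± 6.81 CPM (SD, n = 3 each, adjusted p = 0.00654). Arhgef10 was not called without the libraries with Xist. Over all alternative fits its log2 fold change stayed at -0.37 to -0.20. Summed oligodendrocyte markers were also lower, at 7199 to 8990 CPM in C57BL/6 and 4841 to 6529 CPM in DBA/2, with 6 of 15 called lower, 9 not called and none of these markers at 0. Their part in the Arhgef10 and Arhgef10l values was not tested.

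Falls were frequent among the genes around this pair. Of 22 tested genes within 500 kb of Arhgef19, 10 were lower and 1 higher in DBA/2, and of 12 within 500 kb of Arhgef10l, 8 were lower. The windows overlap, and Padi2, Atp13a2, Mfap2, Crocc, Necap2 and Szrd1 are among the falls of both. The counts and medians of the 2 windows are thus not separate observations. Over all tested genes 13.7% were called lower and 9.09% higher. Crocc, which encodes the ciliary rootlet protein rootletin, fell from 151 ± 9.33 to 41.2 ± 4.38 CPM, and Padi2, which encodes a peptidylarginine deiminase, from 44.8 ± 3.13 to 14 ± 1.98 CPM (SD, n = 3 each). The median log2 fold change of the neighbours was -0.34 around Arhgef19 and -0.39 around Arhgef10l, and 0.00 for all genes. Around Arhgap4, 9 of 38 neighbours were higher and 2 lower, with a median of 0.03. Around Tbc1d9, 6 of 14 neighbours were lower and 2 higher, and around Arhgap29, 6 of 9 were lower and 1 higher. Other windows went against their member. Around Rasal1 2 of 21 were called, both lower, while Rasal1 rose. Rasgrf1 rose too, and 4 of its 7 neighbours were lower and 1 higher, with a median of -0.47. Arhgef15 also rose, while 7 of its 31 neighbours were lower and 2 higher. Tbc1d5 fell, and 2 of its 3 neighbours were higher and 0 lower. The window of 500 kb, the members whose windows are given and the genes named in them were chosen after values were known.

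**Figure D5:**
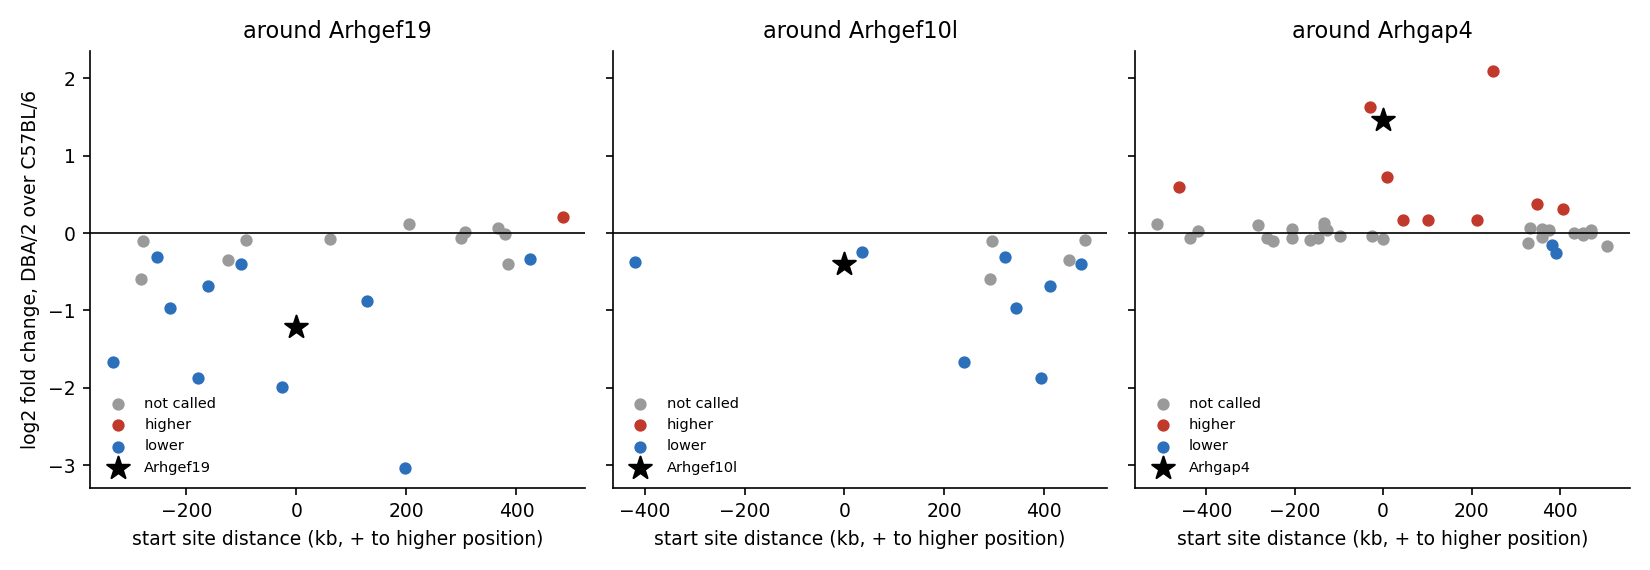
Log2 fold change of DBA/2 over C57BL/6 (y axis) of tested genes whose bodies come within 500 kb of Arhgef19, Arhgef10l or Arhgap4, against the distance of their start sites (x axis, kb, positive towards higher positions), with the member as a star. The falls in the left panel lie on both sides of Arhgef19 and those in the middle panel mostly on the side towards it, with medians of -0.34 and -0.39, while most neighbours of Arhgap4 lie near 0. The left and middle panels share genes.

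RhoA exchange factors that take signals from the G proteins of the G12 class had 1 called rise and 1 called fall. Arhgef1, which encodes p115-RhoGEF, had 87.8, 97.7 and 90.4 CPM in the C57BL/6 libraries and 109, 97.7 and 115 CPM in the DBA/2 libraries, with the highest C57BL/6 and the lowest DBA/2 library both at 97.7 CPM after rounding (log2 fold change 0.22 ± 0.06, adjusted p = 0.00914). It was not called without C57BL/6 replicate 1 (adjusted p = 0.0641) or DBA/2 replicate 3 (0.0625). Arhgef11, which encodes PDZ-RhoGEF, had 94.6, 91.4 and 89.5 CPM in the C57BL/6 libraries and 76.3, 79.4 and 83.6 CPM in the DBA/2 libraries, all DBA/2 values being lower (log2 fold change -0.20 ± 0.05, adjusted p = 0.00823). It was not called without C57BL/6 replicate 1 (adjusted p = 0.0571) or DBA/2 replicate 1 (0.0542). Arhgef12, which encodes the third of these, LARG, had 272 ± 17.7 and 287 ± 23.4 CPM (SD, n = 3 each, adjusted p = 0.394). Arhgef2, which encodes the microtubule-bound GEF-H1, fell from 168 ± 1.51 to 139 ± 7.18 CPM (SD, n = 3 each, log2 fold change -0.28, adjusted p = 0.000153). Arhgef25, the most abundant Arhgef gene, which encodes p63RhoGEF, had 329.6 ± 14.7 and 346 ± 32.4 CPM (SD, n = 3 each), not called except without DBA/2 replicate 2 (adjusted p = 0.0273).

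Arhgef4, Arhgef6 and Arhgef7 encode exchange factors of Rac and Cdc42. Arhgef6, which encodes αPIX and lies on the X chromosome, rose from 30.4 ± 0.182 to 38 ± 3.15 CPM (SD, n = 3 each, adjusted p = 0.00174). It was not called without the libraries with Xist. Over all alternative fits its log2 fold change stayed at 0.26 to 0.39. Its autosomal paralogue Arhgef7, which encodes βPIX, had a log2 fold change of 0.07 and was not called. Arhgef4, which encodes Asef, had 224 ± 7.66 and 204 ± 6.28 CPM (SD, n = 3 each, adjusted p = 0.0396) and overlaps the abundant Fam168b on the opposite strand. The Arhgef4 call was lost without C57BL/6 replicate 1 or 2 or DBA/2 replicate 1, 2 or 3 (adjusted p 0.0535 to 0.184), with library size alone (0.0884) and with the replicate block (0.0800).

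The remaining called Arhgef genes were Arhgef15, Arhgef26, Arhgef18 and Arhgef33. Arhgef15 encodes a RhoA exchange factor of vessels that also limits excitatory synapses, and had 11.6, 11.3 and 11.8 CPM in the C57BL/6 libraries and 15.8, 17.1 and 16.5 CPM in the DBA/2 libraries. The strains did not overlap (log2 fold change 0.51 ± 0.10, adjusted p = 0.000436), and the part of the vessel markers given above in this value was not tested. Arhgef26, which encodes the RhoG exchange factor SGEF, rose from 49 ± 4.44 to 57.5 ± 0.788 CPM (SD, n = 3 each, adjusted p = 0.0113), but was not called without C57BL/6 replicate 3 (adjusted p = 0.130). Arhgef18, which encodes p114-RhoGEF, had 66.9 ± 2.51 and 75.1 ± 3.4 CPM (SD, n = 3 each, adjusted p = 0.0419), and was not called without C57BL/6 replicate 1 or 2 or DBA/2 replicate 2 or 3 (0.0692 to 0.183) or with the replicate block (adjusted p = 0.0525). Arhgef33 fell from 2.39 ± 0.456 to 1.32 ± 0.0716 CPM (SD, n = 3 each, adjusted p = 0.0213) and overlaps the far more abundant Sos1 on the opposite strand. Its call was lost without C57BL/6 replicate 2 (adjusted p = 0.101) or DBA/2 replicate 2 (0.0678).

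Dock proteins are exchange factors of Rac and Cdc42 with a catalytic domain of their own. Dock9, the Cdc42 exchange factor zizimin, had 286, 305 and 301 CPM in the C57BL/6 libraries and 321, 340.0 and 346 CPM in the DBA/2 libraries, higher in each DBA/2 library (log2 fold change 0.18 ± 0.05, adjusted p = 0.00723), and was not called without C57BL/6 replicate 1 (adjusted p = 0.0605). Dock4, a Rac exchange factor of dendrites, had 308 ± 14.7 and 342 ± 15.1 CPM (SD, n = 3 each, adjusted p = 0.0265), with the call lost without C57BL/6 replicate 1 or 2 or DBA/2 replicate 2 or 3 (adjusted p 0.0644 to 0.156). Dock3, a neuronal Rac exchange factor, had a log2 fold change of 0.11 and Dock10, a Cdc42 exchange factor, one of 0.13, and neither was called. The summed Dock level was 69.6 ± 2.23 FPKM in C57BL/6 and 77.1 ± 2.62 FPKM in DBA/2 (SD, n = 3 each).

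The calcium- and lipid-responsive Ras exchange factors included Rasgrp1, the member with the highest level. Rasgrp1, which diacylglycerol and calcium activate, had 558, 577 and 544 CPM in the C57BL/6 libraries and 665, 616 and 618 CPM in the DBA/2 libraries, and each DBA/2 library was higher (log2 fold change 0.18 ± 0.05, adjusted p = 0.00607). Without the libraries with Xist it was not called. Over all alternative fits its log2 fold change stayed at 0.14 to 0.20. Rasgrp1 made up 95.7% to 97.1% of the Rasgrp FPKM in every library. Rasgrf1, which calmodulin and NMDA receptors engage, had 505.5, 545 and 520.2 CPM in the C57BL/6 libraries and 598, 617 and 608 CPM in the DBA/2 libraries, without overlap (log2 fold change 0.22 ± 0.04, adjusted p = 0.000823). Rasgrf1 was not called without the libraries with Xist. Over all alternative fits its log2 fold change stayed at 0.16 to 0.25. It held 79.5% to 80.5% of the summed Rasgrf FPKM in C57BL/6 and 82.8% to 83.9% in DBA/2. Rasgrf2 had a log2 fold change of -0.11 and was not called. Rasgrp4, known from mast cells, had 1.41 ± 0.231 and 2.54 ± 0.466 CPM (SD, n = 3 each, adjusted p = 0.0197) and overlaps Fam98c on the opposite strand, which had 920 counts in C57BL/6 and 953 in DBA/2 against its 72 and 122. The Rasgrp4 call was lost without C57BL/6 replicate 2 or 3 or DBA/2 replicate 2 (adjusted p 0.0509 to 0.119).

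Dock2, a Rac exchange factor of migrating leukocytes, had 4.43 ± 0.268 and 3.83 ± 0.762 CPM, and Arhgap15, a Rac GAP, 11.9 ± 0.998 and 11.5 ± 0.725 CPM (SD, n = 3 each). Their strains overlapped. Both genes, picked out after their values were seen, were not called, whereas Rasgrp4, also of leukocytes, was. In the same libraries 8 of 20 microglia markers were lower and 1 higher, with summed levels of 539 to 568 CPM in C57BL/6 and 426 to 464 CPM in DBA/2.

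Of the 8 members on the X chromosome, Arhgap4 and Arhgef6 were higher and 6 were not called, a share of 25.0% called, close to the 22.8% of all tested genes. Arhgap6, a RhoA GAP, had 17.2, 17.7 and 19.5 CPM in the C57BL/6 libraries and 9.75, 18.3 and 15.3 CPM in the DBA/2 libraries, and Arhgap36, which acts in Hedgehog signalling, had 2.83, 3.21 and 3.54 CPM in the C57BL/6 libraries and 1.17, 3.95 and 3.53 CPM in the DBA/2 libraries. In both genes DBA/2 replicate 1 was the lowest library, and neither was called. Choroid plexus markers, none of them at 0, were highest in that library, at 3752 CPM against 1150 to 2736 CPM in the other 5, and their part in these values was not tested. Thalamus and habenula markers, outside the hippocampus, were lower in DBA/2, with 6 of 15 called and sums of 545 to 720 CPM in C57BL/6 and 316 to 396 CPM in DBA/2. Hippocampal neuron markers were present in all libraries, at 8004 to 8600 and 8468 to 9009 CPM, with 5 of 16 higher and 1 lower. How far the tissue parts move the members was not tested.

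The 7 members below the count filter had at most 12 counts in any library. Arhgef38 totalled 25 counts over the C57BL/6 libraries and 5 over DBA/2. Scaled for depth, C57BL/6 over DBA/2 was 4.67 (95% interval from counting error 1.76 to 15.6), and without the filter it was called lower (adjusted p = 0.0261). Tbc1d21 totalled 5 counts over C57BL/6 and 19 over DBA/2, where DBA/2 over C57BL/6 was 4.07 (1.47 to 13.9). Arhgap8 totalled 2 and 7 counts, Arhgap40 22 and 18, Arhgef39 20 and 29 and Tbc1d10c 4 and 1 in C57BL/6 and DBA/2. Rasgrp2, the Rap exchange factor of platelets and striatum, had 2 counts over the C57BL/6 libraries and 1 over the DBA/2 libraries. Whether reads of this gene were lost in counting was not tested, so the low count need not mean absence.

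The switches and other partners of these regulators were read from lists of pathway genes drawn up with earlier results of these data known. Of 19 tested GTPases of the RhoA, Rac and Cdc42 family 2 were lower, Rnd3, from 18.6 ± 1.65 to 11.1 ± 0.342 CPM, and Cdc42, the switch of filopodia and polarity, from 266 ± 5.83 to 216 ± 7.01 CPM (SD, n = 3 each), and 17 were not called. Of 24 Ras family GTPases 1 was higher and 5 lower, with Mras from 204 ± 10.5 to 152 ± 6.47 CPM and Rerg from 24.5 ± 2.84 to 15.3 ± 1.19 CPM (SD, n = 3 each) the largest falls. Of 50 Rab GTPases 1 was higher and 4 lower. Rab3c, a Rab of synaptic vesicles, fell from 481 ± 39 to 348 ± 25.9 CPM (SD, n = 3 each), and Rab37 had 10.2 ± 4.41 and 2.99 ± 0.514 CPM, not called without DBA/2 replicate 2 or 3 (adjusted p up to 0.0848). Their medians of -0.10, -0.01 and -0.04 compare with 0.00 over all genes. Of 7 GDP dissociation inhibitors, which hold switches in the inactive state, 2 were lower and 5 not called. Arhgdib, an inhibitor of blood cells, was one of the pair, with 5.69 ± 1 and 3.83 ± 0.323 CPM, not called without C57BL/6 replicate 3 or DBA/2 replicate 2 (adjusted p up to 0.160).

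Regulators outside the symbol rule were read in the same way. Of 39 other GAPs 12 were higher and 2 lower, a median of 0.08, and of 49 tested other exchange factors 9 were higher and 7 lower. Gmip, a RhoA GAP, had 14.5 ± 0.811 and 18.7 ± 1.94 CPM, not called without DBA/2 replicate 3 (adjusted p = 0.063), and the RhoA GAP Dlc1 fell from 67.8 ± 3.58 to 53.8 ± 4.87 CPM (SD, n = 3 each). Rgl2, a Ral exchange factor, fell from 75 ± 2.73 to 43.1 ± 3.73 CPM and Vav3, a Rac exchange factor, from 23 ± 2.74 to 13.5 ± 2.05 CPM (SD, n = 3 each). Of 39 effectors 7 were higher and 8 lower. Cit, the citron kinase that binds RhoA, fell from 119 ± 7.1 to 67 ± 4.39 CPM, and Iqgap1, a scaffold that binds Cdc42 and Rac, rose from 33.4 ± 2.51 to 48.1 ± 2.33 CPM (SD, n = 3 each).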

How the data were processed

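Hippocampal RNA of 3 C57BL/6 and 3 DBA/2 libraries was sequenced, with strain from the strain label and replicate numbers from the titles. Build GRCm38, HISAT2 2.0.1, Cufflinks 2.2.1 and Trimmomatic 0.30 are named, per the submitters' processing notes. For the counting program, its annotation and its strand setting: not given in the sources used here. Raw integer counts for each gene were deposited by the authors, with FPKM beside them. Recomputing FPKM from counts, listed exonic length and library total matched the deposited FPKM within 0.005. The table has 12 further columns of per-sample values, which match no labelled sample and were not used. No row lacked a symbol.

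Counts of all genes were fitted with edgeR 4.0.16 (quasi-likelihood, robust, TMM, filterByExpr by strain) in R 4.3.3, with Benjamini-Hochberg adjustment over 17517 genes and calls at an adjusted p under 0.05. CPM are TMM-scaled and given as mean ± SD over 3 libraries. A standard error is the fold change divided by the root of F. A count of 0 allows up to 3 counts, 0.149 to 0.217 CPM. Intervals cover counting error only. The code was tested on simulated data. Coordinates are from GENCODE M21 (GRCm38), counted from 1. All 113 members had their symbol there. Transcripts were compared with BLAST 2.17.0 (200 bases, 95% identity, 0.5 of the shorter). Only Arhgef12 had a similar transcript elsewhere, Sp140, with 32 counts against 27575. Overlapping genes were listed from the annotation.

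Members and lists were chosen with earlier results of these data known. Named genes are, per class, the 8 largest called rises and falls, the 3 lowest adjusted p besides, and the most abundant of each family, with up to 2 called genes per pathway list. Other members are named for their role, chosen with their values known. Same-strain libraries varied beyond sampling noise (chi-square per degree of freedom 3.16 to 3.93, and 13.7 to 18.6 between strains), so none was merged. Alternatives were other scalings and filters, DESeq2 1.42.0, limma 3.58.1 (voom, and log2 of FPKM plus 1 or 0.1), a replicate block, each library left out, the libraries with Xist left out, and similar transcripts summed. Some named genes are not reported here.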

Additional observations from a re-analysis of the deposited data

How the results depend on the processing

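Of the 33 called members, 12 were called the same way in every one of the 17 alternatives that gave them a value, 21 lost the call in at least 1, and none reversed under any alternative. The calls that held throughout are those of Arhgap4, Rasal1, Arhgap12, Arhgap21, Arhgap26, Arhgap29, Tbc1d9, Tbc1d30, Arhgef19, Arhgef10l, Arhgef2 and Arhgef15. GAPs called numbered 12 to 17 with a library left out and exchange factors 12 to 16, against 16 and 17. Without both C57BL/6 libraries with Xist these were 10 and 7, where fewer samples were fitted and the lone library is assumed to vary like the others. Limma called 10 exchange factors on log2(FPKM + 1) and 10 on log2(FPKM + 0.1), where the cause was not tested. DESeq2 called 12 GAPs and 14 exchange factors. Without the filter, Arhgap6 and Arhgef38 were called lower as well (adjusted p = 0.0136 and 0.0261). Library size alone gave 11 higher and 4 lower GAPs and 13 higher and 6 lower exchange factors. With the replicate number as a block, 15 GAPs and 15 exchange factors were called. Deviations of same-numbered libraries correlated at 0.13, -0.08 and 0.003, so the numbers are not taken to pair the libraries. Summing similar transcripts changed no call. Members under 1 FPKM rest on few counts, and there a small difference was not detectable at this depth.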
